A study of Catharanthus roseus with 35 samples.

Results

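Cytochromes P450 are membrane-bound haem enzymes that insert oxygen into small molecules, and in Catharanthus roseus (Madagascar periwinkle) they carry out many of the oxidations of the monoterpenoid indole alkaloid (MIA) pathway, whose products include vindoline, catharanthine and the anticancer alkaloid vinblastine. Idioblasts are scattered leaf cells that accumulate these alkaloids. The genes described here are 6 P450 genes that the study named as idioblast candidates, CATHA_29341, CATHA_29024, CATHA_7265, CATHA_10498, CATHA_38788 and CATHA_14613, out of 35722 genes in the count tables. They were selected on their higher read counts in idioblast than in mesophyll protoplasts, and lie near MIA enzymes in a tree of P450 proteins, so their values in those protoplasts are given as a description, without a test. None of the 6 has an assigned reaction in the sources used here, and their sequences were not analysed here.

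All plants were of the cultivar Little Bright Eye. For fluorescence-activated cell sorting (FACS), fully developed leaves of flowering plants from a growth chamber (25 °C, 16 h light) were turned into protoplasts, which are cells without walls, and sorted into idioblast protoplasts (n = 3) and mesophyll protoplasts (n = 3). Unsorted total protoplasts (n = 3) and whole leaves (n = 2, called FACS leaves here) came with them. Each replicate pooled several plants, and these libraries were made with Smart-seq2. In the leaf experiment, whole leaves of pairs 1 to 4, with pair 1 nearest the shoot apex, were taken from plants moved outdoors to direct sun and from plants that stayed in the chamber (indoors, 25 °C, 16 h light), giving 3 samples for each of the 8 combinations. The study took the leaf pairs of each growth condition from 3 plants, so samples of different leaf pairs in a condition are not independent. TruSeq Illumina libraries were used for leaf pairs 1 and 4, while Nanopore sequencing was used for leaf pairs 2 and 3. Library kit and experiment therefore cannot be told apart between the FACS and the leaf samples, and groups were contrasted only within each. The fit for sorted protoplasts also held the TruSeq leaf samples, which shared its filter, scaling and spread estimate. Levels are CPM, a gene's count relative to its library's total after scaling by the trimmed mean of M-values (TMM). They are not divided by gene length, and they are compared here within a gene and never between genes.

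The 23 Illumina samples held 10263533 to 17625811 counts (median 12670642) and the 12 Nanopore samples 85976 to 732961 (median 498480). The idioblast markers DAT and D4H, enzymes of the last steps of vindoline synthesis, had a summed level of 1356 to 3453 CPM in idioblast protoplasts, 47.6 to 150 CPM in mesophyll protoplasts, 109 to 182 CPM in total protoplasts and 927 to 1030 CPM in FACS leaves. The summed level of 8 epidermis genes was 177 to 245 CPM in idioblast protoplasts, against 2472 to 2591 CPM in mesophyll protoplasts, so the sorted mesophyll samples also carried RNA of epidermis genes. The 2 FACS leaf samples lay far apart, with summed epidermis levels of 770 and 3050 CPM and summed levels of 6 genes of the internal phloem-associated parenchyma of 310 and 1909 CPM.

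CATHA_29341, which the study placed near the tabersonine 16-hydroxylases of the vindoline route (T16H1 and T16H2) and the tabersonine epoxidases of a branching route (TEX1 and TEX2), was detected in every sample. It had 593, 518 and 546 CPM in idioblast protoplasts (8556, 6182 and 4684 counts), against 92.0, 151 and 120 CPM in mesophyll protoplasts (792, 1446 and 962 counts). All 3 idioblast samples lay above all mesophyll samples, but the gene was well expressed in mesophyll protoplasts too. The ratio of pooled counts, scaled to library size, was 4.55 (95% interval 4.38 to 4.73), an interval that covers counting error only, as do all intervals and floors here. Total protoplasts had 129, 139 and 156 CPM, a range that overlapped that of mesophyll protoplasts, and FACS leaves had 58.5 and 26.6 CPM.

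CATHA_29024 and CATHA_7265 were placed near vincadifformine 19-hydroxylase (V19H) and tabersonine 3-oxygenase (T3O), an enzyme of the vindoline branch, and neither had a count in any mesophyll sample. CATHA_29024, described in the study as like a premnaspirodiene oxygenase, had 12.1, 19.8 and 19.8 CPM in idioblast protoplasts (174, 236 and 170 counts), against 0 counts in all 3 mesophyll samples. Against a floor of 3 counts over the mesophyll group this is at least 145-fold higher. CATHA_7265 had 1.25, 5.86 and 5.71 CPM in idioblast protoplasts (18, 70 and 49 counts), with 0 counts in mesophyll protoplasts, at least 34.2-fold higher. The first idioblast sample was the lowest of its group for both genes.

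CATHA_10498 and CATHA_38788 were placed near alstonine synthase (AS), which forms heteroyohimbine-type alkaloids of the serpentine kind. The study placed them near geissoschizine oxidase of the central MIA pathway as well. Almost all of their counts in sorted protoplasts came from the idioblast samples. CATHA_10498 had 5.54, 5.28 and 6.06 CPM in idioblast protoplasts (80, 63 and 52 counts) and 0 counts in mesophyll protoplasts, at least 48.7-fold higher. CATHA_38788 had 11.4, 10.98 and 10.5 CPM in idioblast protoplasts (164, 131 and 90 counts) and 0, 2 and 0 counts in mesophyll protoplasts. Its ratio of pooled counts was 144 (95% interval 39.7 to 1196). The idioblast replicates of both genes stood close together, with SDs of 0.399 CPM around 5.63 CPM for CATHA_10498 and 0.434 CPM around 10.9 CPM for CATHA_38788 (n = 3 each).

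CATHA_14613, which the study's tree grouped with T19H, a hydroxylase acting on tabersonine, was the lowest in counts among the members in idioblast protoplasts. It had 1.18, 1.59 and 0.583 CPM there (17, 19 and 5 counts), against 0, 0 and 1 count in mesophyll protoplasts. The ratio of pooled counts was 30.7, with a 95% interval of 5.22 to 1244.

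Among the members, CATHA_29341 had the smallest fitted log2 fold change (FC) of idioblast over mesophyll protoplasts, 2.204. The tree of proteins also set the choice, so no gene is defined as the nearest outside it. In the comparisons below a gene is called when adjusted p ≤ 0.05 and absolute log2 FC ≥ 1, the study's thresholds. In mesophyll against total protoplasts only CATHA_10498 was called, as lower (0.802% of genes were), on 0 counts in mesophyll and 3, 2 and 5 counts in total protoplasts. That call was lost without any 1 of these samples other than total protoplast sample 2, and with the replicate number as a block (edgeR adjusted p = 0.0805), and the mesophyll values had entered the choice of members, so nothing is read from it.

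**Figure D1:**
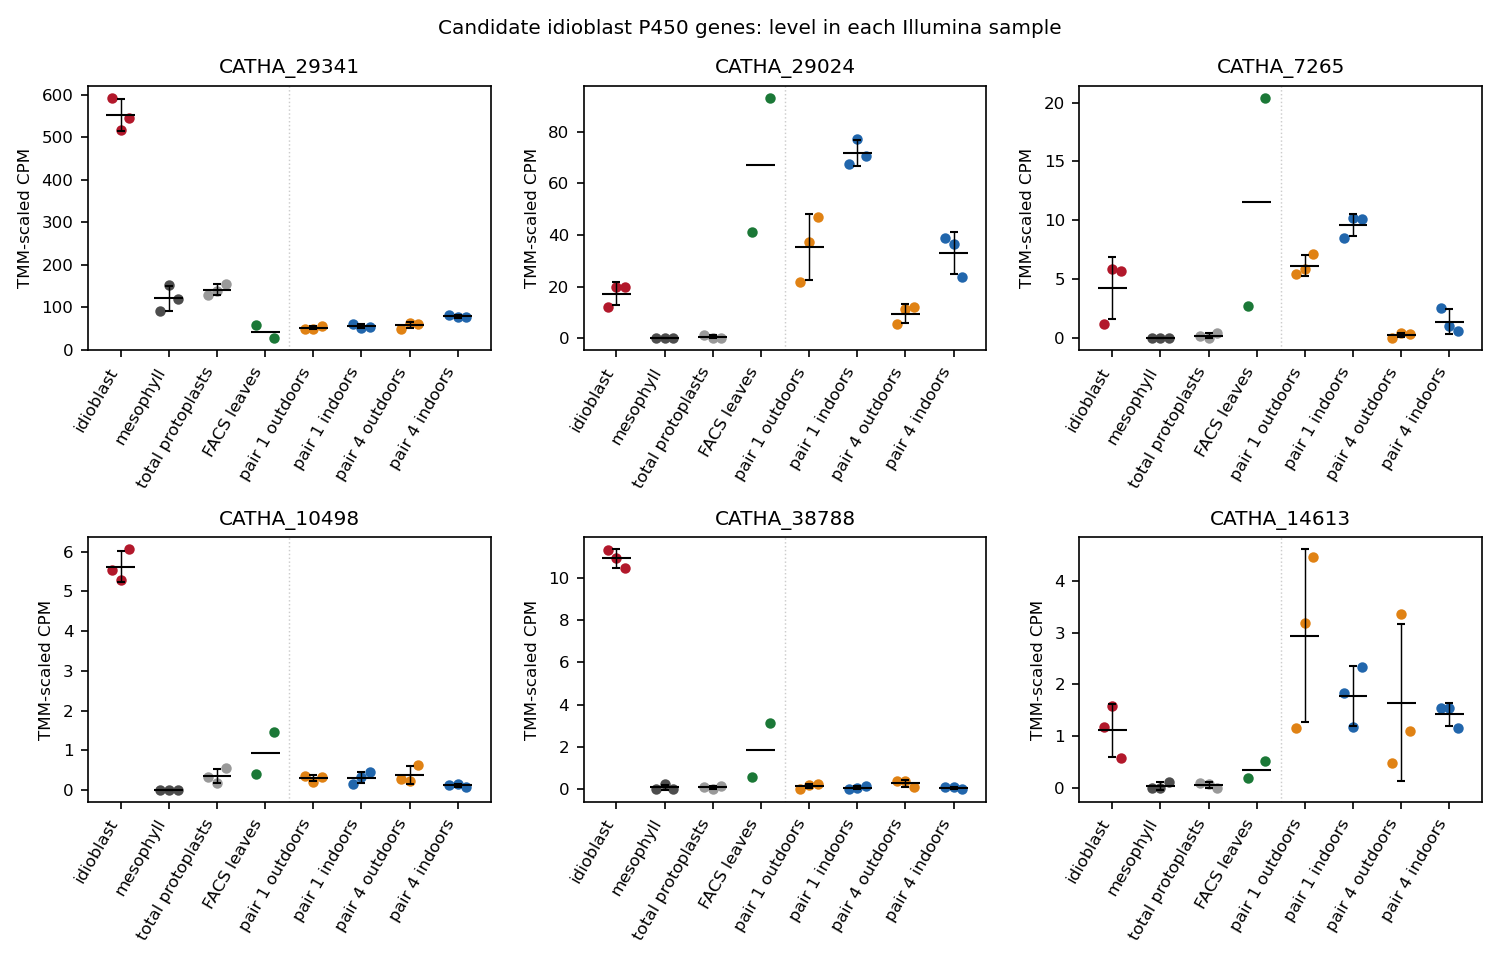
Level of each member (TMM-scaled CPM, linear axis, its own scale per panel) in the 23 Illumina samples of 8 groups, where points are samples, horizontal bars means and vertical bars SDs (none for the 2 FACS leaf samples). CATHA_29341, CATHA_10498 and CATHA_38788 are highest in idioblast protoplasts, whereas CATHA_29024, CATHA_7265 and CATHA_14613 have their highest group mean in whole leaves. For CATHA_14613 these are leaf-pair samples, while its FACS leaves lie below its idioblast protoplasts.

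The order of the 8 Illumina groups split the members. CATHA_29341, CATHA_10498 and CATHA_38788 had their highest mean in idioblast protoplasts, at 552 ± 37.8, 5.63 ± 0.399 and 10.9 ± 0.434 CPM (SD, n = 3), with no overlap with the next group. The other members had a higher mean in some whole-leaf group than in the sorted idioblasts, for CATHA_14613 only in leaf-pair groups. CATHA_29024 averaged 17.2 ± 4.47 CPM in idioblast protoplasts and 71.8 ± 4.97 CPM in leaf pair 1 indoors (SD, n = 3 each). CATHA_7265 averaged 4.28 ± 2.62 CPM in idioblast protoplasts and 9.61 ± 0.943 CPM in leaf pair 1 indoors (SD, n = 3 each). CATHA_14613 averaged 1.12 ± 0.507 CPM in idioblast protoplasts and 2.94 ± 1.67 CPM in leaf pair 1 outdoors (SD, n = 3 each), and its ranges overlapped over the 4 leaf-pair groups and idioblasts when taken in order. Levels of FACS and leaf samples were set side by side without a test, since kits differ. Within the FACS samples, CATHA_29024 had 41.0 and 93.1 CPM in FACS leaves, above its idioblast range. CATHA_7265 had 2.75 and 20.4 CPM in FACS leaves, a range that overlapped its idioblast range. CATHA_14613 had 0.201 and 0.518 CPM in FACS leaves, below its 0.583 to 1.59 CPM in idioblast protoplasts, so its order was reversed there.

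**Figure D2:**
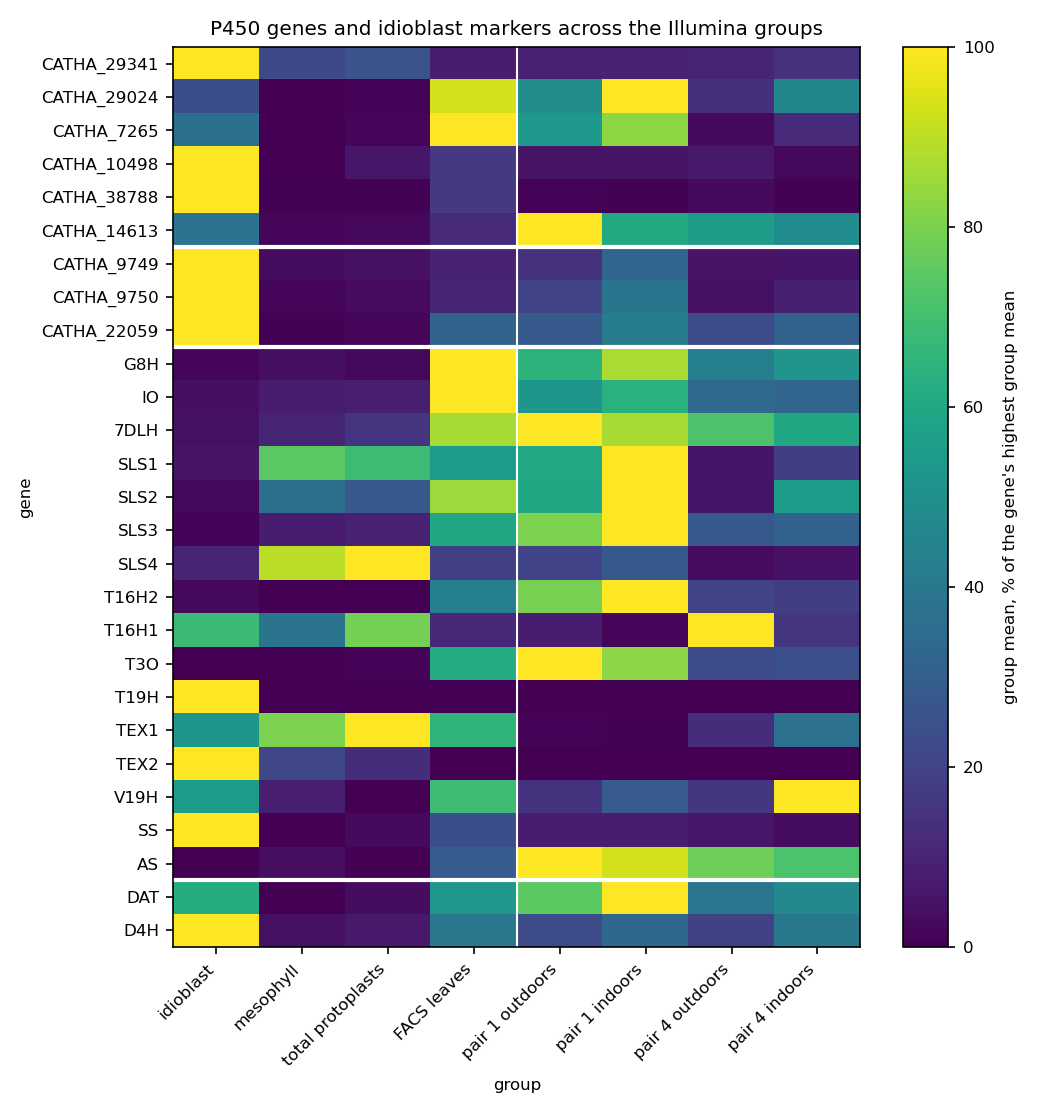
Group means of P450 genes and of DAT and D4H in the 8 Illumina groups, as a percentage of each gene's highest group mean (colour), with rows in blocks from the top of the 6 members, 3 further P450 genes named with them, 16 MIA P450 genes and the 2 idioblast markers. CATHA_29024 reaches 24.0% of its highest mean in idioblast protoplasts and 0.822% in total protoplasts, while CATHA_38788 is at 0.657% in total protoplasts and 16.6% in FACS leaves.

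Levels of the members before and after protoplast preparation were addressed by total protoplasts against FACS leaves. The study extracted RNA from leaves and from protoplasts with different kits. It discarded a leaf sample for degraded RNA, and left FACS leaves out of its own model for their spread. Effects of protoplast preparation and of RNA extraction therefore cannot be told apart here. The contrast holds no idioblast or mesophyll sample, but all 11 FACS samples were in the fit and its low-count filter. From the total protoplast and leaf samples alone only CATHA_29341, CATHA_29024 and CATHA_7265 had enough counts for a test. CATHA_38788, CATHA_10498 and CATHA_14613 passed the filter only through their idioblast counts, the values they were chosen for, so their fitted values are given as a description. Of the 3 members tested on the compared samples' own counts, 2 fell and 1 rose, with these calls in both fits. The 2 that fell, CATHA_29024 and CATHA_7265, had enough counts there only through the leaves, where they were high. Of the 17533 genes tested over the FACS samples, 27.5% were lower and 22.5% higher (50.1% in either direction), and a count of this size cannot be read as particular to the members. In bulk samples, fewer cells of a type and less RNA per cell cannot be told apart.

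CATHA_29024 had 1.18, 0.266 and 0.325 CPM in total protoplasts (11, 3 and 3 counts), against 41.0 and 93.1 CPM in FACS leaves (611 and 899 counts). Every total protoplast sample lay far below both leaves, and the gene fell by 6.88 on the log2 scale (SE 0.637, edgeR adjusted p = 3.24e-05). CATHA_7265 had 2, 0 and 4 counts in total protoplasts, against 41 and 197 counts in FACS leaves, and fell by 5.78 on the log2 scale (SE 1.22, edgeR adjusted p = 0.00334). Without FACS leaf sample 2 the log2 FC of CATHA_7265 was -3.67 (edgeR adjusted p = 0.0249).

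CATHA_38788 had 1, 0 and 1 count in total protoplasts, against 8 and 30 counts in FACS leaves, with a fitted log2 FC of -4.53 (SE 1.05), or -2.80 without FACS leaf sample 2. Both leaves lay above all 3 total protoplast samples. CATHA_10498 had 3, 2 and 5 counts in total protoplasts and 6 and 14 counts in FACS leaves, a fitted log2 FC of -1.42 (SE 0.763) that was -2.08 without FACS leaf sample 1 and -0.25 without sample 2. CATHA_14613 had 1, 1 and 0 counts in total protoplasts and 3 and 5 counts in FACS leaves, and a difference was not detectable at this depth (fitted log2 FC -2.24, SE 1.19).

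CATHA_29341 went the other way. Its 129, 139 and 156 CPM in total protoplasts all lay above its 58.5 and 26.6 CPM in FACS leaves, a log2 FC of 1.69 (SE 0.322, edgeR adjusted p = 0.00115). The markers moved with the members that fell. DAT had 5.04, 3.99 and 5.09 CPM in total protoplasts, against 60.2 and 93.6 CPM in FACS leaves, a log2 FC of -4.08 (edgeR adjusted p = 8.15e-06), and D4H had a log2 FC of -2.61 (edgeR adjusted p = 0.000781). Of the 6 genes of the internal phloem-associated parenchyma, 4 fell as well, and of the 8 epidermis genes 3 fell and 1 rose. The part of these cell types in the members' differences was not tested.

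Of the 16 P450 genes with a known MIA reaction, 14 could be tested in this contrast, and 9 fell and 2 rose. T16H2, which adds a hydroxyl group to tabersonine, had 0.107, 0.178 and 1.08 CPM in total protoplasts, against 22.1 and 80.7 CPM in FACS leaves, a log2 FC of -6.87 (edgeR adjusted p = 0.000161). T3O fell by 6.24 on the log2 scale (edgeR adjusted p = 0.00279) and serpentine synthase (SS) fell by 3.20 (edgeR adjusted p = 0.00286). Of the 3 other P450 genes named with the members, CATHA_9750 fell by 1.82 (edgeR adjusted p = 0.00110) and CATHA_22059 fell by 4.51 (edgeR adjusted p = 0.000257), while CATHA_9749 had a log2 FC of -1.17 (edgeR adjusted p = 0.0578). CATHA_29341 thus differed in sign from its tree neighbours T16H2, CATHA_9749 and CATHA_9750, a difference that was not tested. Of the other MIA enzymes it was placed near, T16H1 was called higher (log2 FC 2.78, edgeR adjusted p = 0.0160). TEX1 (0.56, edgeR adjusted p = 0.566) and TEX2 (5.44, edgeR adjusted p = 0.0757) were not called. TEX1 had 7.51, 16.2 and 11.7 CPM in total protoplasts and 14.6 and 0.828 CPM in FACS leaves, overlapping ranges. TEX2 had 14, 1 and 0 counts in total protoplasts and 0 in both FACS leaves, so its sign rests almost wholly on 1 sample.

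**Figure D3:**
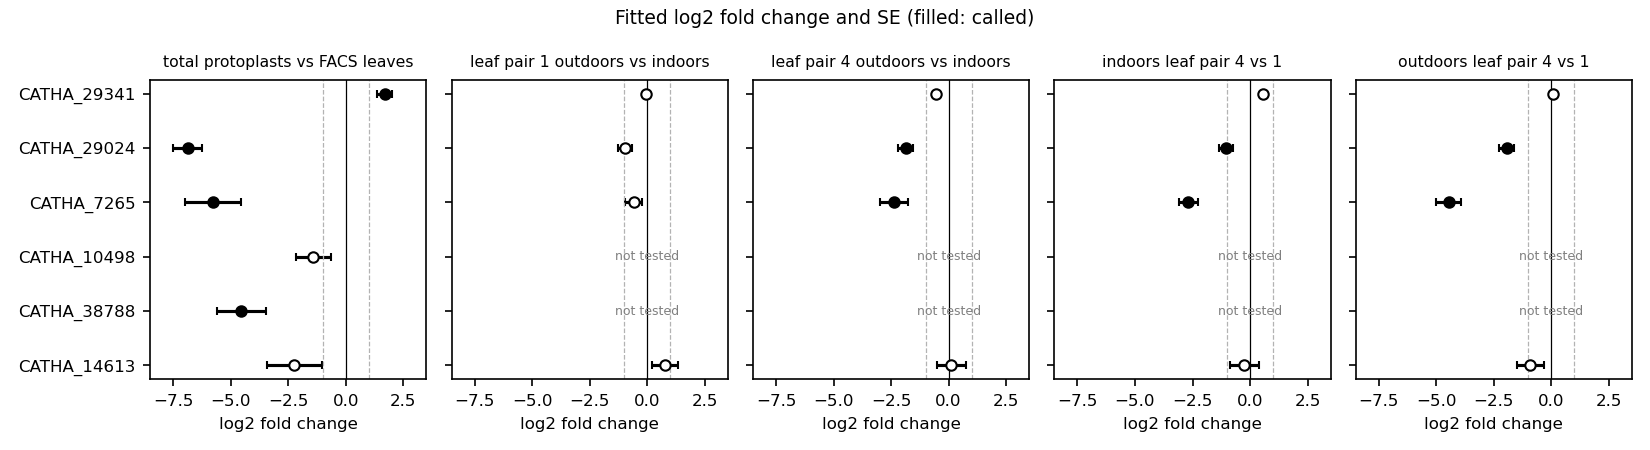
Fitted log2 FC (x axis) with its SE for each member (y axis) in the 5 Illumina comparisons that the choice of members did not use as a contrast, filled where called (dashed lines mark the fold threshold). CATHA_29024 and CATHA_7265 are called lower in 4 of the 5 comparisons. Among the samples compared in total protoplasts against FACS leaves, both had enough counts for a test only through the leaves, where they were high. In the leaf comparisons CATHA_7265 passed the filter only through the leaf pair nearest the shoot apex, where it was high. CATHA_29341 is called only in total protoplasts against FACS leaves, where it is higher. In that comparison CATHA_38788, CATHA_10498 and CATHA_14613 passed the filter only through idioblast counts.

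The leaf experiment addressed growth outdoors and leaf age. Enough counts for a test were left for 4 members in leaf pairs 1 and 4, and CATHA_10498 and CATHA_38788 dropped out, with 1 to 9 and 0 to 5 counts per sample over those 12 samples. The study's co-expression modules, which it also weighed in naming candidates, were built with these leaf samples, so the leaf values were not wholly unseen when the members were chosen.

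CATHA_29024 was lower outdoors than indoors. In leaf pair 4 it had 5.52, 11.2 and 12.1 CPM outdoors, against 38.7, 36.4 and 23.8 CPM indoors. The groups did not overlap, and it fell by 1.86 on the log2 scale (SE 0.325, edgeR adjusted p = 0.000899). In leaf pair 1 it had 21.9, 37.3 and 46.9 CPM outdoors, against 67.5, 77.3 and 70.7 CPM indoors, again without overlap. That log2 FC of -0.97 (SE 0.300, edgeR adjusted p = 0.0385) stopped just under the fold threshold and is not counted as a call. It was -1.23 without leaf pair 1 outdoors sample 3, and DESeq2 also called it lower (DESeq2 adjusted p = 0.0105). The 2 growth effects were not shown to differ between leaf pairs (interaction log2 FC -0.90, SE 0.437, edgeR adjusted p = 0.233).

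CATHA_7265 had 1, 6 and 5 counts in leaf pair 4 outdoors (0.0698, 0.447 and 0.346 CPM), against 40, 14 and 8 counts indoors (2.58, 1.03 and 0.583 CPM). The groups did not overlap, and it fell by 2.38 on the log2 scale (SE 0.602, edgeR adjusted p = 0.00777), or by 1.55 without leaf pair 4 indoors sample 1 (edgeR adjusted p = 0.0346). It passed the low-count filter only through leaf pair 1, where it was high, and was not tested with the leaf pair 4 samples alone. In leaf pair 1 it had 5.43, 5.91 and 7.14 CPM outdoors and 8.53, 10.2 and 10.1 CPM indoors, a log2 FC of -0.59 (SE 0.360) that did not pass the test (edgeR adjusted p = 0.268). The interaction was -1.79 (SE 0.712, edgeR adjusted p = 0.149).

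CATHA_29341 had 49.4, 62.6 and 59.5 CPM in leaf pair 4 outdoors, against 82.4, 76.0 and 76.2 CPM indoors. All 3 outdoor samples were lower, with a log2 FC of -0.53 (SE 0.106, edgeR adjusted p = 0.00198) that was under the fold threshold. In leaf pair 1 it had 49.2, 49.7 and 55.1 CPM outdoors and 60.1, 52.0 and 53.1 CPM indoors, overlapping ranges with a log2 FC of -0.05 (SE 0.106, edgeR adjusted p = 0.769). The interaction was -0.48 (SE 0.150, edgeR adjusted p = 0.0756).

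CATHA_14613 had the largest SE of the 4 members tested in both growth comparisons. It had 0.489, 3.36 and 1.11 CPM in leaf pair 4 outdoors and 1.55, 1.55 and 1.17 CPM indoors. In leaf pair 1 it had 1.16, 3.19 and 4.46 CPM outdoors and 1.83, 1.18 and 2.33 CPM indoors. The ranges overlapped in both leaf pairs, and the log2 FC was 0.12 (SE 0.638) in leaf pair 4 and 0.78 (SE 0.581) in leaf pair 1, neither past the test (edgeR adjusted p = 0.895 and 0.365).

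Thus 2 of 4 members tested were called lower outdoors in leaf pair 4, where 11.4% of the 17299 genes tested were lower (17.2% in either direction). With the leaf pair 4 samples alone 1 of 3 was called, CATHA_29024. In leaf pair 1, 0 of 4 were called, where 6.57% of genes were, and CATHA_29024 alone of the 4 had an adjusted p under 0.05, and DESeq2 called 1 member, the same gene. Of the 14 MIA P450 genes tested, 3 were lower and 1 higher outdoors in leaf pair 4, and 0 were called in leaf pair 1 with edgeR, where 4 had an unadjusted p under 0.05. The interaction called 0 of the 4 members with edgeR (2 had an unadjusted p under 0.05) and 0 with DESeq2, beside 3.99% of genes. V19H fell by 2.73 on the log2 scale in leaf pair 4 (edgeR adjusted p = 0.00406), secologanin synthase SLS1 fell by 1.78 (edgeR adjusted p = 0.000908) and T16H1 was higher by 2.59 (edgeR adjusted p = 0.0172). The summed idioblast markers were 444 to 538 CPM outdoors and 940 to 992 CPM indoors in leaf pair 4, and 550 to 747 CPM outdoors and 870 to 928 CPM indoors in leaf pair 1. Taken apart, D4H was called lower in leaf pair 4 (log2 FC -1.10, edgeR adjusted p = 8.41e-05). DAT was not (-0.34, edgeR adjusted p = 0.217). In leaf pair 1 neither was called, with -0.47 for D4H (edgeR adjusted p = 0.0225) and -0.37 for DAT (edgeR adjusted p = 0.240). The summed epidermis genes were 143 to 255 CPM outdoors and 540 to 748 CPM indoors in leaf pair 4, and 5 of the 8 were called lower. The part of these cell types in the members' differences was not tested.

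The members also differed with leaf age. Indoors, CATHA_29024 had 38.7, 36.4 and 23.8 CPM in leaf pair 4, against 67.5, 77.3 and 70.7 CPM in leaf pair 1, and fell by 1.06 on the log2 scale (SE 0.302, edgeR adjusted p = 0.0118). Without leaf pair 4 indoors sample 3 this was -0.86 (edgeR adjusted p = 0.0574) and the call was lost. Outdoors, its 5.52 to 12.1 CPM in leaf pair 4 lay below its 21.9 to 46.9 CPM in leaf pair 1, and it fell by 1.95 (SE 0.324, edgeR adjusted p = 0.000477).

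CATHA_7265 had the largest fitted differences with leaf age among the 4 members tested. Indoors it had 0.583 to 2.58 CPM in leaf pair 4, against 8.53 to 10.2 CPM in leaf pair 1, and fell by 2.68 on the log2 scale (SE 0.415, edgeR adjusted p = 0.000319). Outdoors it had 0.0698 to 0.447 CPM in leaf pair 4, against 5.43 to 7.14 CPM in leaf pair 1, and fell by 4.47 (SE 0.530, edgeR adjusted p = 6.12e-05). In neither growth condition did the leaf pairs overlap. CATHA_7265 passed the low-count filter only through leaf pair 1, the higher side of both comparisons. Its calls with leaf age therefore rest on the group that let it be tested.

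CATHA_29341 did not share this direction. Indoors its 76.0 to 82.4 CPM in leaf pair 4 lay above its 52.0 to 60.1 CPM in leaf pair 1, with a log2 FC of 0.57 (SE 0.106, edgeR adjusted p = 0.00100) that was under the fold threshold. Outdoors the leaf pairs overlapped, with a log2 FC of 0.08 (SE 0.106, edgeR adjusted p = 0.533). CATHA_14613 had a log2 FC of -0.25 (SE 0.622) indoors and -0.92 (SE 0.597) outdoors, neither past the test (edgeR adjusted p = 0.752 and 0.214). Without leaf pair 4 outdoors sample 2, the outdoor value was -1.94 and was called (edgeR adjusted p = 0.0192).

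In both growth conditions 2 of 4 members tested were called lower in leaf pair 4, beside 10.8% of genes indoors (22.3% in either direction) and 13.9% outdoors (22.4% in either direction). They were CATHA_29024 and CATHA_7265, the latter tested only through its counts in leaf pair 1. Among the 14 MIA P450 genes tested, 6 fell and 3 rose indoors, and 6 fell and 2 rose outdoors. T16H2 fell by 2.36 indoors (edgeR adjusted p = 1.86e-05) and by 2.04 outdoors (edgeR adjusted p = 1.20e-05). TEX1 rose by 5.81 indoors (edgeR adjusted p = 0.000324) and by 3.88 outdoors (edgeR adjusted p = 0.00477). In leaf pair 1 its mean was 0.605% indoors and 0.787% outdoors of its highest group mean, 11.8 CPM. Both of these rises therefore start from a level near the floor. CATHA_9749 fell by 2.46 indoors and CATHA_9750 by 2.07 (edgeR adjusted p = 0.000217 and 0.000163), unlike their tree neighbour CATHA_29341. T16H1, also near it in the tree, rose by 2.99 indoors (edgeR adjusted p = 0.0325) and by 3.59 outdoors (edgeR adjusted p = 0.00318). The mean of T16H1 in leaf pair 1 was low as well, at 1.93% indoors and 7.98% outdoors of its highest group mean, 12.1 CPM. The summed epidermis genes were 540 to 748 CPM in leaf pair 4 indoors and 1857 to 2016 CPM in leaf pair 1 indoors, and 8 of 8 were called lower in leaf pair 4 outdoors. The summed idioblast markers were 940 to 992 CPM in leaf pair 4 indoors and 870 to 928 CPM in leaf pair 1 indoors. This sum hides a split. Indoors DAT was called lower in leaf pair 4 (log2 FC -1.03, edgeR adjusted p = 0.00202). D4H was not called, with a log2 FC of 0.33 (edgeR adjusted p = 0.0487). Outdoors neither was called, with -0.999 for DAT (edgeR adjusted p = 0.00238) and -0.30 for D4H (edgeR adjusted p = 0.0724). The part of these cell types was not tested.

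Leaf pairs 2 and 3 were measured with few long reads, and only CATHA_29341 and CATHA_29024 had enough estimated counts for a test. CATHA_29024 had 9.61, 6.31 and 9.31 CPM in leaf pair 2 outdoors (3, 3 and 5 counts), against 35.5, 22.6 and 25.8 CPM indoors (4, 12 and 13 counts). The groups did not overlap, but the log2 FC of -1.62 (SE 0.639) did not pass the test over all Nanopore samples (edgeR adjusted p = 0.0963). It did when only the compared groups were fitted, at -1.59 (edgeR adjusted p = 0.0480). In leaf pair 3 it had 0, 11.3 and 3.65 CPM outdoors and 14.3, 6.48 and 11.97 CPM indoors, overlapping ranges with a log2 FC of -1.18 (SE 0.745, edgeR adjusted p = 0.305). The mean of CATHA_29024 was thus lower outdoors in each of the 4 leaf pairs, with a call in leaf pair 4 alone. Since the leaf pairs of a growth condition shared plants, these are not 4 independent results.

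CATHA_29341 had 28.8, 33.7 and 35.4 CPM in leaf pair 2 outdoors and 35.5, 18.8 and 33.7 CPM indoors (log2 FC 0.25, SE 0.386, edgeR adjusted p = 0.742). In leaf pair 3 it had 38.4, 49.6 and 38.3 CPM outdoors and 51.2, 49.7 and 81.8 CPM indoors (log2 FC -0.55, SE 0.314, edgeR adjusted p = 0.243). Indoors, leaf pair 3 lay above leaf pair 2 in every sample, with a log2 FC of 1.14 (SE 0.357) that did not pass the test (edgeR adjusted p = 0.258). CATHA_7265 had 0, 0 and 1 count in leaf pair 2 outdoors and 1, 1 and 3 counts indoors, and 0, 1 and 0 counts in leaf pair 3 outdoors and 3, 1 and 1 counts indoors. CATHA_10498 had 0 counts in all 12 Nanopore samples, where 3 counts over a group correspond to 2.02 to 2.61 CPM, above its levels in leaf pairs 1 and 4. CATHA_38788 had 0 to 2 counts and CATHA_14613 0 to 2 counts per Nanopore sample. With edgeR, 0 members were called in each of the 4 Nanopore contrasts, where unadjusted p was under 0.05 for 1 member in leaf pair 2 outdoors against indoors and 2 in leaf pair 3 against 2 indoors, and DESeq2 also called 0. The background was 10.2% of 5641 genes in leaf pair 2 and 13.2% in leaf pair 3 outdoors against indoors, 0.213% in leaf pair 3 against 2 outdoors and 0% indoors. With the replicate number as a block, 91 genes were called in leaf pair 3 against 2 outdoors in place of 12, and still 0 members.

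**Figure D4:**
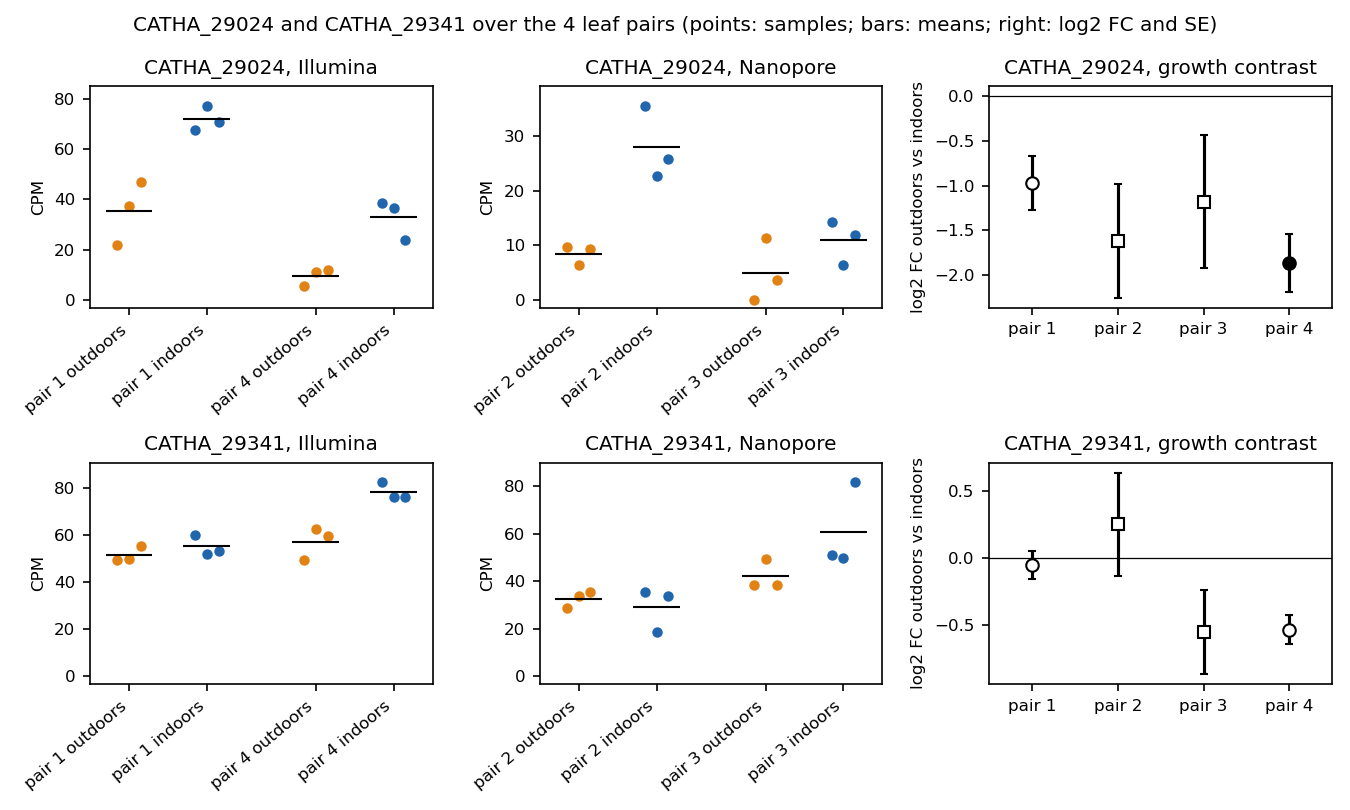
CPM of CATHA_29024 (top) and CATHA_29341 (bottom) in each sample of leaf pairs 1 and 4 (left, Illumina) and 2 and 3 (middle, Nanopore, scaled separately), and the log2 FC outdoors against indoors with its SE per leaf pair (right, circles Illumina, squares Nanopore, filled where called). CATHA_29024 has its lower mean outdoors in all 4 leaf pairs, and CATHA_29341 has log2 FCs of -0.05, 0.25, -0.55 and -0.53 in leaf pairs 1 to 4.

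Likeness over the 12 Illumina leaf samples was described by Pearson's r of log2(CPM + 1) with 67 genes of the study's MIA gene table. These samples fall into 4 groups of 3, so r mostly follows differences between the group means, and it is given without a test. For CATHA_29341 the nearest were V19H (r = 0.944) and the zinc finger repressors ZCT1 (0.924) and ZCT2 (0.900). By rank (Spearman's rho) these were lower, at 0.888, 0.755 and 0.608. The highest group mean of V19H was only 2.44 CPM. For CATHA_29024 they were strictosidine synthase STR (0.954), SLS2 (0.946) and geissoschizine synthase GS1 (0.936). For CATHA_7265 they were tetrahydroalstonine synthase THAS2 (0.986), SLS4 (0.981) and SLS1 (0.976). For CATHA_14613 the highest value was 0.596, with THAS. With the idioblast marker DAT, r was 0.951 for CATHA_7265, 0.885 for CATHA_29024, 0.545 for CATHA_14613 and -0.315 for CATHA_29341. With D4H it was 0.263, 0.684, 0.007 and 0.707 in the same order. Among the members, CATHA_29024 and CATHA_7265 had r = 0.864 with each other, and CATHA_29341 had r = 0.057 with CATHA_29024 and -0.394 with CATHA_7265. Of 17298 genes, 1100 had a higher r with CATHA_29024 than CATHA_7265 did, and 65 had a higher one than STR.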

How the data were processed

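Short reads were trimmed by the authors (Trimmomatic 0.39), mapped to version 2 of the C. roseus genome with HISAT2 and summed over exons by featureCounts 2.0.1, and the authors deposited the raw count of each gene. For long reads the authors deposited estimated counts, which were rounded here; the submitters' processing notes name minimap2 and Salmon 1.4.0. Since no strand option is stated, reads of overlapping or antisense genes are uncertain, and close P450 copies can share reads.

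Groups were compared with edgeR 4.0.16 in R 4.3.3 (filterByExpr, TMM, robust quasi-likelihood test, Benjamini-Hochberg adjustment over all genes tested) over 21 Illumina samples for sorted protoplasts, 11 FACS samples for total protoplasts against leaves, 12 Illumina leaf samples and 12 Nanopore samples. DESeq2 1.42.0 was an alternative. A call needed adjusted p ≤ 0.05 with absolute log2 FC ≥ 1. CPM were scaled by TMM over 23 Illumina and over 12 Nanopore samples. Where all samples of a group had 0 counts, the fold was computed against 3 counts over that group, and 95% intervals of ratios are exact. Figures were drawn with Python 3.11.15 and matplotlib 3.10.9.

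The members and lists were chosen with earlier results of these data known. Named genes are the members, 3 further P450 genes named with them, the 16 MIA P450 genes of the study's table analysed here, DAT, D4H, and per member with a mean of at least 1 CPM in the Illumina leaf samples the 3 MIA genes with the highest r. Which MIA P450 genes were given values as examples was decided after their values were seen. The tests reported carry no replicate block. The study calls the FACS samples paired. It took the leaf pairs of each growth condition from 3 plants, but the labels do not say which leaf samples share a plant. The leaf-age and interaction tests therefore treated samples from shared plants as independent. Equal numbers had correlations of 0.148 to 0.429 for idioblast with mesophyll and 0.197 to 0.431 for idioblast with total protoplasts, and 0.337 to 0.488 for leaf pairs 4 and 1 outdoors and 0.157 to 0.377 for leaf pairs 3 and 2 outdoors (0.07 to 0.414 for mesophyll with total protoplasts). For these comparisons the fit with the replicate number as a block is given beside the result where it changed a call or a count of calls. RefSeq gene names matched 0 of the gene IDs.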

Additional observations from a re-analysis of the deposited data

How the results depend on the processing

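Each comparison was refitted with DESeq2, DESeq2's size factors, no low-count filter, other sample sets, the replicate number as a block, and without each replicate. In total protoplasts against leaves the compared groups only left 3 members tested and called, against 4 with the filter over all FACS samples. In mesophyll against total protoplasts 1 member was called, against 2 with DESeq2 and 0 in the compared groups only and over all 23 Illumina samples. Leaf pair 1 outdoors against indoors gave 1 call with DESeq2, against 0. With the compared groups only, leaf pair 4 gave 1 call in place of 2, because CATHA_7265 was then not tested, and leaf pair 2 gave 1 in place of 0. The causes of the other changes were not tested.

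The replicate block gave 0 calls in mesophyll against total protoplasts, 1 in leaf pair 1 outdoors against indoors (CATHA_29024, log2 FC -1.01, edgeR adjusted p = 0.0432) and 1 in leaf pair 3 against 2 indoors (CATHA_29341, 1.18, edgeR adjusted p = 0.0397). It turned CATHA_14613 in leaf pair 4 outdoors against indoors to -0.0226. It changed no other count of members called. Equal numbers correlated at 0.064 to 0.378 and -0.128 to 0.106 outdoors with indoors in leaf pairs 1 and 4, and 0.065 to 0.166 in leaf pairs 3 and 2 indoors. Equal numbers were therefore not taken to mark pairs there, although leaf pairs 3 and 2 indoors came from shared plants.

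Leaving out replicates gave 0 to 1 calls in mesophyll against total protoplasts, 4 to 5 in total protoplasts against leaves, 0 to 1 in leaf pair 1 outdoors against indoors, and, in leaf pair 4 against 1, 1 to 2 indoors and 2 to 3 outdoors. It also turned the sign of uncalled log2 FCs, which ranged from -3.09 to 0.70 for CATHA_38788 in mesophyll against total protoplasts, -0.10 to 0.0263 for CATHA_29341 in leaf pair 1, -0.91 to 0.56 for CATHA_14613 in leaf pair 4 and -0.0308 to 0.52 for CATHA_29341 in leaf pair 2, outdoors against indoors. Members with under about 10 counts per sample were limited by depth.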
